A study of Mus musculus with 10 samples.

Results

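A set of 10 genes, 9 that mark resident macrophages of the mouse spleen and the monocyte antigen gene Ly6c2, was followed in CD117+ splenocytes before and during exposure to LPS, the cell wall glycolipid of Gram-negative bacteria that is recognised by TLR4. The 10 genes were Csf1r, Emr1, Mertk, Axl, Timd4, Mrc1, Cd163, Marco, Vcam1 and Ly6c2, out of 25664 gene symbols that a probe set of the array carried on its own. For each gene the brightest probe set carrying that symbol alone was taken, and each of the 10 symbols had 1 such probe set. CD117 is the receptor for stem cell factor, encoded by Kit, and cells bearing it were enriched from the spleens of male C57BL/6 mice aged 9 to 12 weeks by positive selection. The WT group and the RasGRP4-null group, a germline line lacking the guanine nucleotide exchange factor RasGRP4 in every cell, each drew on 5 mice, and the sources used here do not state whether the mice were pooled. Cells of each genotype were placed in culture with 1 µg/ml LPS for 12, 24, 36 or 48 h, or were taken at 0 h without LPS. Each genotype and time point was hybridised to 1 array, giving 10 arrays in all (2 untreated and 8 after LPS), and no array came from cells cultured without LPS, so that LPS and time in culture cannot be told apart.

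Macrophages of the spleen are long-lived tissue cells that depend on the receptor for macrophage colony-stimulating factor. Those of the red pulp clear aged red cells and recycle their iron, those of the marginal zone take up blood-borne particles, and both engulf dying cells through receptors that sense phosphatidylserine. Ly6c2 stands apart from the other 9 genes, since it encodes an antigen of inflammatory monocytes that is also found on other white cells, among them plasma cells and subsets of T cells, and that resident macrophages largely lack.

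Promoter sequences were at hand in RefSeq (build GRCm38.p6) for 7 of the 10 genes, and those of 3 genes are shown: Mrc1 and Cd163, which fell steeply, and Ly6c2, which rose. Each run is the 250 bases before the transcript's start, 5′ to 3′, at chr2:14229164-14229413 on the plus strand for Mrc1, chr6:124304401-124304650 on the plus strand for Cd163 and chr15:75111972-75112221 on the minus strand for Ly6c2 (the first of the listed start sites). Capitals mark GAGGAA or its reverse complement, the core to which the myeloid transcription factor PU.1 binds.
Mrc1: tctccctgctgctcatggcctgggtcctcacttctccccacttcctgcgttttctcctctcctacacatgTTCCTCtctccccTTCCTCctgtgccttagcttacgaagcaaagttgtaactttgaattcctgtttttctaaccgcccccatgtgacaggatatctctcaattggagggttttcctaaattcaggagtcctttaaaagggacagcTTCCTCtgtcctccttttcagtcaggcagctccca
Cd163: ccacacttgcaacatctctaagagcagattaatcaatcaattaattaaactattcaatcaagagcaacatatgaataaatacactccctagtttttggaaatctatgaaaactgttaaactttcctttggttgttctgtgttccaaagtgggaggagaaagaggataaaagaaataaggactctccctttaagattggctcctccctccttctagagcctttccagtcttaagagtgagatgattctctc
Ly6c2: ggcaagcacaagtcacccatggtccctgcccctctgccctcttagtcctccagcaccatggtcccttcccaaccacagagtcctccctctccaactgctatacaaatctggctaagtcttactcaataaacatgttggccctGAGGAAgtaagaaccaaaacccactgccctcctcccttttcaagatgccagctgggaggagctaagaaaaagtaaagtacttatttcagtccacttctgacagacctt
The core occurred 3 times before Mrc1, 0 times before Cd163 and 1 time before Ly6c2. Over the 7 promoters, 4 held it on either strand (Axl, Mrc1, Marco and Ly6c2), as did 23.3% of 32851 mouse promoter windows of the same length.

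The values are PLIER intensities, a summary of the probes of each probe set on a linear scale. Background was taken from 1089 probe sets for olfactory receptors, as the level that 95% of them did not exceed on an array, and lay between 29.1 and 38.5. The median of all probe sets was 24.6 to 28.6 on the 10 arrays. Kit, the gene of the selected antigen, was above background on all 10 arrays, between 133 and 334. Rasgrp4 read 86.4 in untreated WT cells and 16.7 in untreated RasGRP4-null cells, and it was below background on every array after LPS, where it cannot check the genotype. Of the 7 markers of conventional dendritic cells on the array, all were above background in both untreated samples.

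Before LPS, all 10 genes were above background in both genotypes. After LPS, 6 to 8 of them were, depending on the array. On average over 12 to 48 h, 9 of the 10 genes were lower than at 0 h and Ly6c2 was higher (limma on log2(PLIER + 16), Benjamini-Hochberg adjusted over 11185 genes, adjusted p between 2.90e-11 and 2.28e-05). In the same comparison 21.5% of all tested genes were lower and 48.2% were higher. For each of the 10 genes the 2 untreated arrays did not overlap the 8 LPS arrays, as was so for 60.8% of all tested genes. The median change of the 10 genes was -4.20 on the log2 scale, against 0.26 for all tested genes. These counts carry a limit: all 10 genes passed the filter of an intensity of 50 on at least 2 arrays, but 4 of them (Csf1r, Emr1, Mrc1 and Marco) reached it on the untreated arrays alone and so could enter the test in no other way. On the authors' GAPDH scale the falls of all 9 genes were larger, for example 63.1-fold in WT and 46.0-fold in RasGRP4-null cells for Mertk, 39.0-fold and 29.1-fold for Axl, and 7.82-fold and 5.07-fold for Marco, and the rise of Ly6c2 was smaller. The folds given for each gene are on the PLIER scale unless stated. Fewer cells of a type and less RNA per cell cannot be told apart in these bulk samples.

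**Figure D1:**
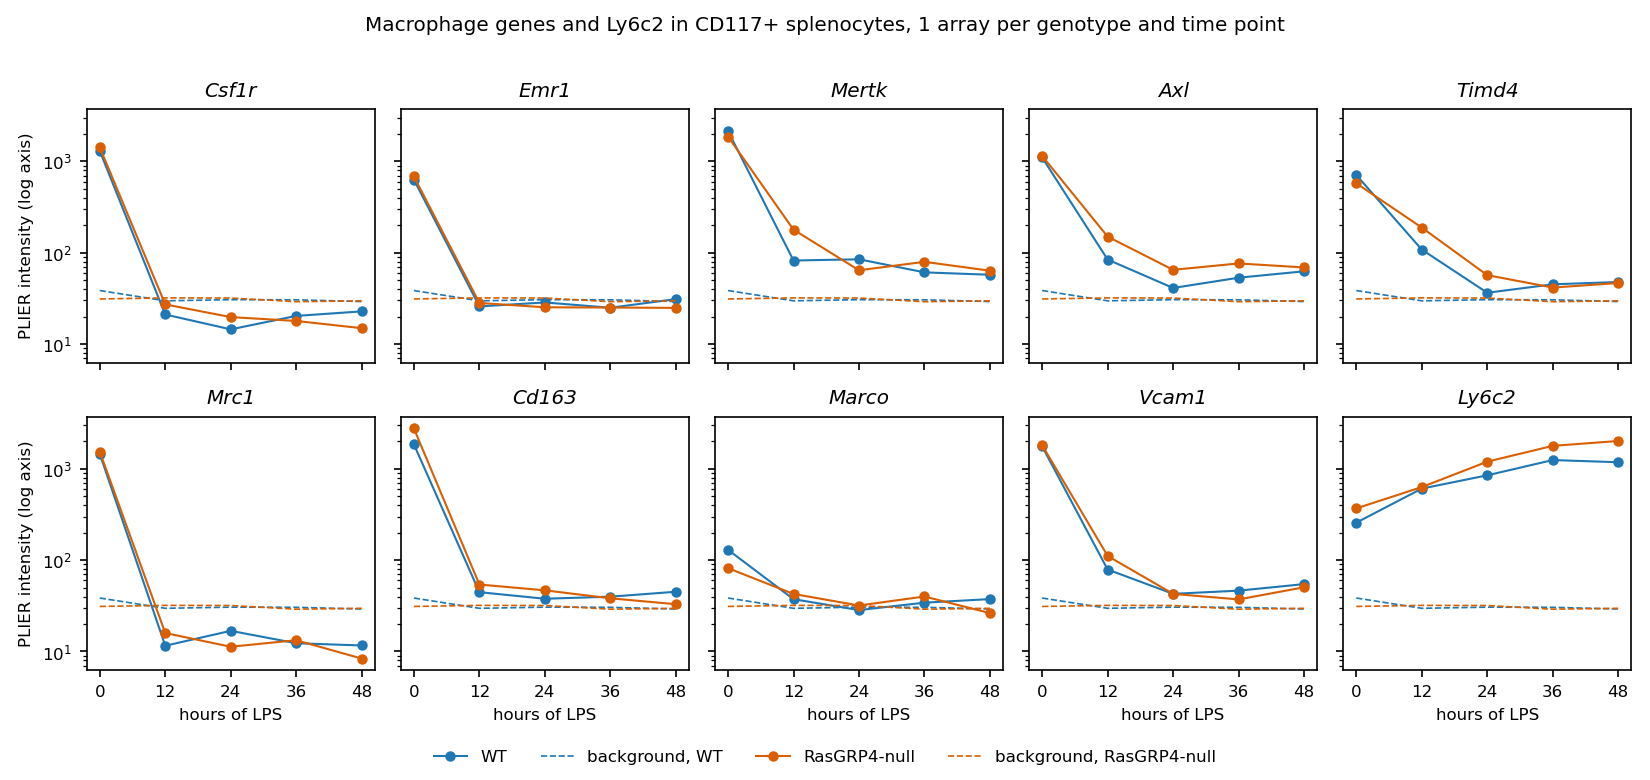
PLIER intensity (log axis) of each of the 10 genes against hours of LPS, with 1 point per array for WT (blue) and RasGRP4-null (orange) cells. Dashed lines give each array's background (29.1 to 38.5). The other 9 genes drop towards or below background by 12 h. Ly6c2 climbs from 258 to 1184 in WT and from 369 to 2024 in RasGRP4-null cells by 48 h.

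Csf1r encodes the receptor for macrophage colony-stimulating factor and interleukin-34, on which macrophage survival depends. In WT cells Csf1r read 1307 at 0 h and 21.1, 14.5, 20.3 and 22.8 at 12, 24, 36 and 48 h. In RasGRP4-null cells it read 1427 at 0 h and 27.2, 19.7, 17.9 and 14.9 at the same times. Both untreated arrays were far above every LPS array, and all 8 LPS arrays were below background, so the fall has a lower bound alone. Measured against background, Csf1r was at least 43.6-fold lower in WT and at least 46.6-fold lower in RasGRP4-null cells. The fitted change was -5.28 ± 0.13 (SE) on the log2 scale (limma adjusted p = 9.59e-11).

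Emr1, now named Adgre1, encodes the adhesion receptor F4/80 by which mouse macrophages are commonly recognised. It read 632 in untreated WT cells and 25.8, 28.5, 25.0 and 31.0 over the 4 LPS time points. The RasGRP4-null arrays gave 685 before LPS and then 28.2, 25.3, 25.1 and 24.9. Again the groups did not overlap, and of the 8 LPS arrays the WT array at 48 h was the one above background. The transcript was at least 22.4-fold lower in RasGRP4-null cells. In WT cells the measured ratio was 23.0, with 3 of the 4 LPS values below background. The fitted change was -3.98 ± 0.11 (SE, limma adjusted p = 2.22e-10).

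Genes around the Csf1 receptor were examined from a list of its ligands and of the transcription factors of the lineage. Of 7 tested, 4 fell and 2 rose. The ligand gene Csf1 rose by 1.75 ± 0.13 (SE) on the log2 scale, from below background on both untreated arrays to above it on all 8 LPS arrays, with 16.3 at 0 h and 138 at 48 h in WT cells and 23.1 and 114 in RasGRP4-null cells. The other ligand gene, Il34, was below background on all 10 arrays. Klf4, which encodes a factor needed for patrolling monocytes, fell by 4.92, and Cebpa, a driver of myeloid fate, fell by 1.71. Irf8, a factor of monocytes and dendritic cells, was called higher by 0.31 (limma adjusted p = 0.0246). That is close to the median change of 0.26 over all tested genes, which depends on the scale. Receptor and ligand transcripts thus moved in opposite directions over the same 10 arrays.

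Mertk, Axl and Timd4 act in the uptake of dying cells. Mertk and Axl encode receptor tyrosine kinases of the TAM family, which bind phosphatidylserine through the bridging proteins Gas6 and protein S, and Timd4 encodes TIM-4, which binds phosphatidylserine directly. Unlike Csf1r, all 3 transcripts stayed above background on every one of the 8 LPS arrays.

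For Mertk the WT arrays gave 2153 at 0 h and 82.2, 84.7, 60.9 and 57.4 from 12 to 48 h. The RasGRP4-null arrays gave 1874 at 0 h and 179, 64.2, 79.5 and 63.5. Among the LPS arrays the RasGRP4-null 12 h array was the highest, and both untreated arrays lay far above it. WT cells kept 3.26% and RasGRP4-null cells 4.66% of the untreated level after LPS, a 30.6-fold and a 21.5-fold fall, and the fitted change was -4.41 ± 0.20 (SE, limma adjusted p = 1.20e-08).

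Axl read 1105 in untreated WT cells and 84.2, 41.1, 53.3 and 62.6 after 12, 24, 36 and 48 h. In RasGRP4-null cells it read 1149, then 150, 65.0, 76.3 and 69.0. The untreated and LPS arrays did not overlap, and at each of the 5 time points the RasGRP4-null array was the higher of the pair. Axl fell 19.0-fold in WT and 13.6-fold in RasGRP4-null cells, with a fitted change of -3.72 ± 0.13 (SE, limma adjusted p = 1.93e-09).

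Timd4 was 711 at 0 h in WT cells and 108, 36.4, 45.1 and 47.8 during LPS. RasGRP4-null cells had 577 at 0 h and 189, 56.8, 41.5 and 46.6 thereafter. The 12 h arrays of both genotypes were the highest of the LPS arrays, and still well under the untreated ones. The fall was 13.2-fold in WT and 8.54-fold in RasGRP4-null cells, and the fitted change was -3.07 ± 0.17 (SE, limma adjusted p = 6.46e-08).

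Tyro3, the remaining TAM receptor gene, changed by -0.14 (limma adjusted p = 0.252) and did not pass the test. Of 9 other tested genes of apoptotic cell uptake, 5 fell, 3 rose and 1 was not called. The falls were led by Itgb5, an integrin subunit that binds the bridging protein MFG-E8 (-3.27), Havcr2, which encodes TIM-3 (-2.32), and Lrp1, a large endocytic receptor (-2.24). Those that rose were Itgb3 (0.78), Havcr1, which encodes TIM-1 (0.74), and Itgav (0.57). On the PLIER scale the list as a whole thus did not move in one direction, with a median of -0.77. GAPDH normalisation moved the median change of all tested genes from 0.26 to -0.70. Whether the 3 rises hold on that scale was not tested.

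Mrc1, Cd163 and Marco encode endocytic and scavenger receptors. Mrc1 encodes the mannose receptor CD206, Cd163 the receptor for haemoglobin bound to haptoglobin, and Marco a collagen-like scavenger receptor typical of marginal zone macrophages.

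Mrc1 had 1464 in untreated WT cells and 11.6, 16.8, 12.3 and 11.6 after LPS. The RasGRP4-null values were 1544, then 15.9, 11.3, 13.3 and 8.37. Every LPS array was below background, and the untreated arrays stood clear of them in both genotypes. Mrc1 was at least 48.8-fold lower in WT and at least 50.4-fold lower in RasGRP4-null cells, and its fitted change of -5.73 ± 0.12 (SE, limma adjusted p = 2.90e-11) is no bound, since it rests on values below background.

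Cd163 read 1861 at 0 h and 44.7, 37.8, 39.9 and 45.1 over the LPS time points in WT cells. RasGRP4-null cells began at 2780 and then had 54.2, 46.8, 38.3 and 33.0. The untreated RasGRP4-null array was the highest for this gene, and the LPS arrays of both genotypes lay just above background, without overlap with the untreated arrays. Cd163 fell 44.6-fold in WT and 65.8-fold in RasGRP4-null cells, with a fitted change of -5.30 ± 0.15 (SE, limma adjusted p = 2.65e-10).

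Marco gave 130 in untreated WT cells and 37.4, 28.4, 34.3 and 37.5 after LPS. In RasGRP4-null cells it gave 81.9, then 42.7, 31.9, 40.0 and 26.3. Even so, the 2 untreated arrays stayed above all 8 LPS arrays, of which 6 were above background. The fall was 3.80-fold in WT and 2.37-fold in RasGRP4-null cells, and the fitted change of -1.24 ± 0.15 (SE, limma adjusted p = 2.28e-05) was the smallest of the 9 falls.

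Most of the other tested genes of these functions were lower as well. Of 9 listed scavenger and mannose receptor genes, 2 were bright enough to test. Both fell, namely Clec4n, which encodes Dectin-2 (-2.73), and Clec7a, which encodes Dectin-1 (-1.64). Of 5 tested genes of haemoglobin and haem uptake, 4 fell: Slc40a1, the iron exporter ferroportin (-5.74), Hmox1, the haem-degrading oxygenase (-3.13), Lrp1 (-2.24), which also takes up haem bound to haemopexin, and Blvrb, a biliverdin reductase (-1.38). Slc48a1, a haem transporter, was at 0.00 (limma adjusted p = 0.979).

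Vcam1 encodes an adhesion molecule that binds the integrin VLA-4 and marks red pulp macrophages, as well as activated endothelium. WT cells had 1767 before LPS and 79.1, 42.8, 46.4 and 54.7 during it. RasGRP4-null cells had 1820, then 111, 42.8, 37.2 and 50.6. The genotypes were close before LPS, and in both the 12 h array was the highest of the 4 LPS arrays but far from the untreated level. Vcam1 fell 32.6-fold in WT and 33.3-fold in RasGRP4-null cells, with a fitted change of -4.67 ± 0.13 (SE, limma adjusted p = 2.38e-10). Of 5 tested integrin and adhesion partners, Itgb7 fell by 1.46 and 4 were not called, among them Itga4 (-0.20) and Itgb1 (0.14), which encode the subunits of VLA-4, and Icam1 (0.31, limma adjusted p = 0.0550). On average over 12 to 48 h Vcam1 thus fell while neither subunit of its main integrin partner passed the test. At 12 h against 0 h, 2 of the 5 partners were called lower. Between 12 and 48 h, Itga4 (0.62, limma adjusted p = 0.0337) and Itgb7 (0.90, limma adjusted p = 0.00105) were called higher. Of the 4 tested markers of endothelium and stroma, 2 fell and 1 rose, with a summed level over all 7 markers of 964 to 982 at 0 h and 739 to 952 after LPS.

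Ly6c2 moved the other way. It rose in WT cells from 258 at 0 h to 609, 851, 1251 and 1184 at 12, 24, 36 and 48 h. In RasGRP4-null cells the values were 369, then 633, 1201, 1790 and 2024. All 8 LPS arrays were above both untreated ones, the 12 h arrays were the lowest of the 8, and RasGRP4-null cells had the higher value at each time point. The mean rise was 3.63-fold in WT and 3.49-fold in RasGRP4-null cells, and the fitted change was 1.78 ± 0.13 (SE, limma adjusted p = 5.14e-07), which held rank 324 from the highest of all tested genes. After the authors' normalisation to GAPDH the rise was 1.76-fold and 1.63-fold, with a fitted change of 0.75 that still passed the test. On that scale the groups overlapped: the 12 h arrays, at 609 in WT and 829 in RasGRP4-null cells, lay below the untreated RasGRP4-null array at 890, and the untreated WT array was at 578. The near-identical paralog Ly6c1 has a probe set of its own, which was below background on all 10 arrays, and how far Ly6c1 transcripts add to the Ly6c2 probe set was not tested.

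Averaged over the LPS time points, no other tested monocyte gene was called higher. Of 9 tested genes of the monocyte list, 8 fell and 1 was not called. The falls included Emr4 (-6.50), Nr4a1, a factor of patrolling monocytes (-3.46), Cd300e (-2.61) and Csf3r, the receptor for granulocyte colony-stimulating factor (-1.30), as well as Ccr2, the chemokine receptor of inflammatory monocytes (-0.70). Between 12 and 48 h, when Ly6c2 went on rising, 2 of the 9 tested monocyte genes rose, 1 fell and 6 were not called. The list median was -0.14. Those that rose were Ccr2 (0.92, limma adjusted p = 0.00232) and Nr4a1 (0.80, limma adjusted p = 0.0135). Ccr2 went from 35.4 to 66.3 in WT and from 22.3 to 70.0 in RasGRP4-null cells. Csf3r fell further (-0.44, limma adjusted p = 0.0431). Of 7 other tested genes listed with the Ly6 family, not all of them its members, 4 rose and Gpihbp1 fell by 0.82. Those that rose were Ly6i (1.64), Ly6k (0.53), Ly6e (0.39) and Ly96 (1.20). Ly96 encodes the TLR4 partner MD-2 and shares little more than its name with Ly6c2. Plasma cell markers moved with Ly6c2: all 4 that were tested rose, led by Prdm1 (1.68) and Mzb1 (1.10), and their summed level over 5 markers went from 1694 to between 2274 and 3293 in WT cells and from 2037 to between 2654 and 5087 in RasGRP4-null cells. The remaining marker, Sdc1, which encodes CD138, was too dim for the test and went the other way, from 39.9 at 0 h to between 22.8 and 28.2 in WT cells and from 68.0 to between 23.7 and 43.2 in RasGRP4-null cells, with 2 of the 8 LPS arrays above background. The part of these markers in the Ly6c2 values was not tested.

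**Figure D2:**
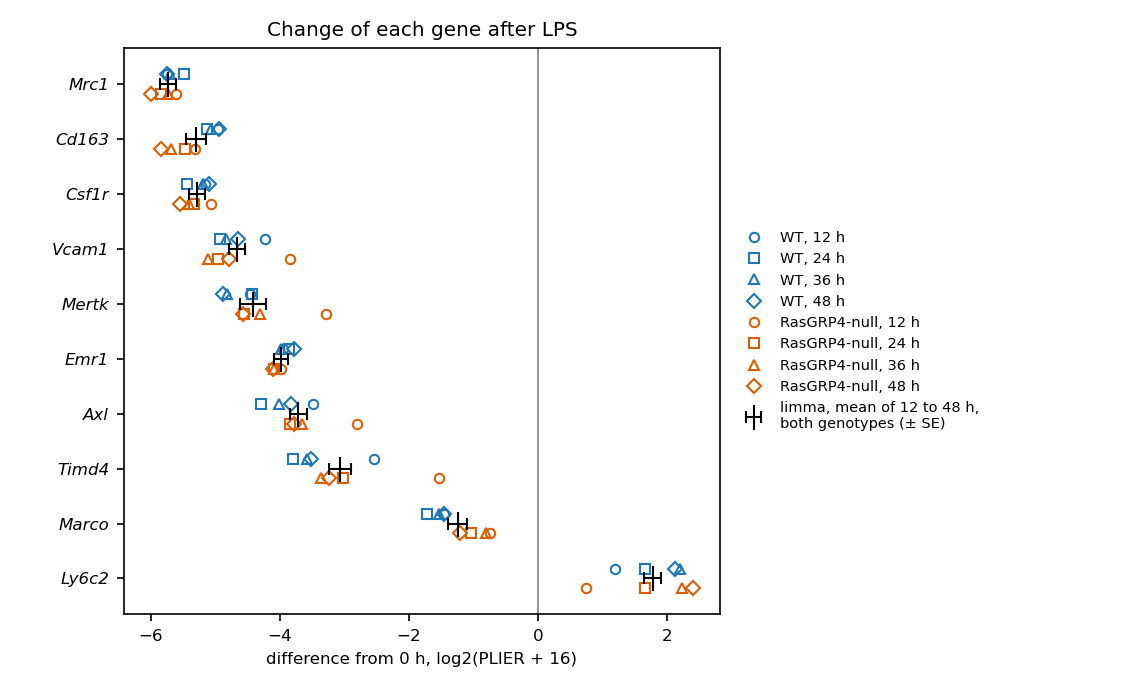
Difference from the 0 h array of the same genotype on the log2(PLIER + 16) scale for each gene, with open symbols for single arrays by genotype and time and a black bar for the limma estimate ± SE over both genotypes. The estimates run from -5.73 for Mrc1 to 1.78 for Ly6c2. The RasGRP4-null 12 h array lies closest to 0 for Csf1r, Mertk, Axl, Timd4, Marco, Vcam1 and Ly6c2, but not for Emr1, Mrc1 and Cd163.

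Other genes of resident macrophages fell alongside. Of 11 tested red pulp macrophage genes, all 11 fell, with a median of -4.62. They were led by C1qc, a subunit of complement C1q (-7.45), Itgad, the integrin subunit CD11d (-5.87), Slc40a1 (-5.74) and C1qb (-5.30). Spic, the transcription factor on which red pulp macrophages depend, fell by 2.40 and stayed above background on all 8 LPS arrays, between 120 and 292. All 3 tested marginal zone genes fell: Cd5l (-4.47), Siglec1, which encodes the sialic acid receptor CD169 (-2.13), and Cd209a (-1.24). Of 14 core macrophage genes, 12 fell, among them Lyz2 (-4.44), Sirpa (-2.63) and the transcription factor gene Maf (-2.21), 1 rose (Csf2rb, the shared receptor chain for GM-CSF, 0.88) and Tlr4 was not called (-0.14, limma adjusted p = 0.416). As with the 10 genes, transcripts that were bright only before LPS could enter the test through the untreated arrays alone.

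Genes of other cell types changed over the same arrays, and their part in the falls was not tested. All 6 tested neutrophil markers fell (median -3.95), led by S100a8 (-5.38) and Ngp (-4.80), and the summed level over 8 markers went from 7924 in WT and 4812 in RasGRP4-null cells to between 128 and 775. Ly6g, the defining neutrophil marker, was below background on all 10 arrays. Of 4 tested red cell precursor markers, 3 fell and Tfrc, the transferrin receptor gene, rose (0.87). The 7 B cell markers were all above background on every array, with a summed level of 5951 to 6480 at 0 h and 2911 to 6780 after LPS, and 2 rose, 2 fell and 3 were not called. Of the 7 conventional dendritic cell markers 4 fell, among them Itgax (-3.31) and Xcr1 (-1.83), and 2 rose, with a summed level of 3695 to 3745 at 0 h and 3141 to 4717 after LPS. The summed level of the 10 genes described here, Ly6c2 included, stood at 11388 (WT) and 12306 (RasGRP4-null) at 0 h and at 1103 to 2361 after LPS. Of the T cell markers tested 4 of 6 fell, and of the NK cell markers 2 of 4 rose and 1 fell. The NK cell markers Klrb1c and Eomes were too dim for the test. Klrb1c, above background on 1 untreated array, was below it on all 8 LPS arrays. Eomes went from 48.0 in WT and 70.3 in RasGRP4-null cells to between 22.7 and 42.9. All 3 tested mast cell markers and all 3 tested plasmacytoid dendritic cell markers rose, as did 48.2% of all tested genes. Too dim for the test were Mcpt4, Cma1, Tpsb2 and Ms4a2 of the mast cell list. They were above background on 0, 4, 1 and 2 of the 8 LPS arrays. Siglech, a defining marker of plasmacytoid dendritic cells that was too dim for the test, went from 69.1 in WT and 41.6 in RasGRP4-null cells at 0 h to below background on all 8 LPS arrays. Klk1, of the same list and also too dim, was above background on neither untreated array and on 1 of the 8 LPS arrays. Interferon-stimulated genes went the opposite way, with 9 of 10 higher and a median of 2.31.

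**Figure D3:**
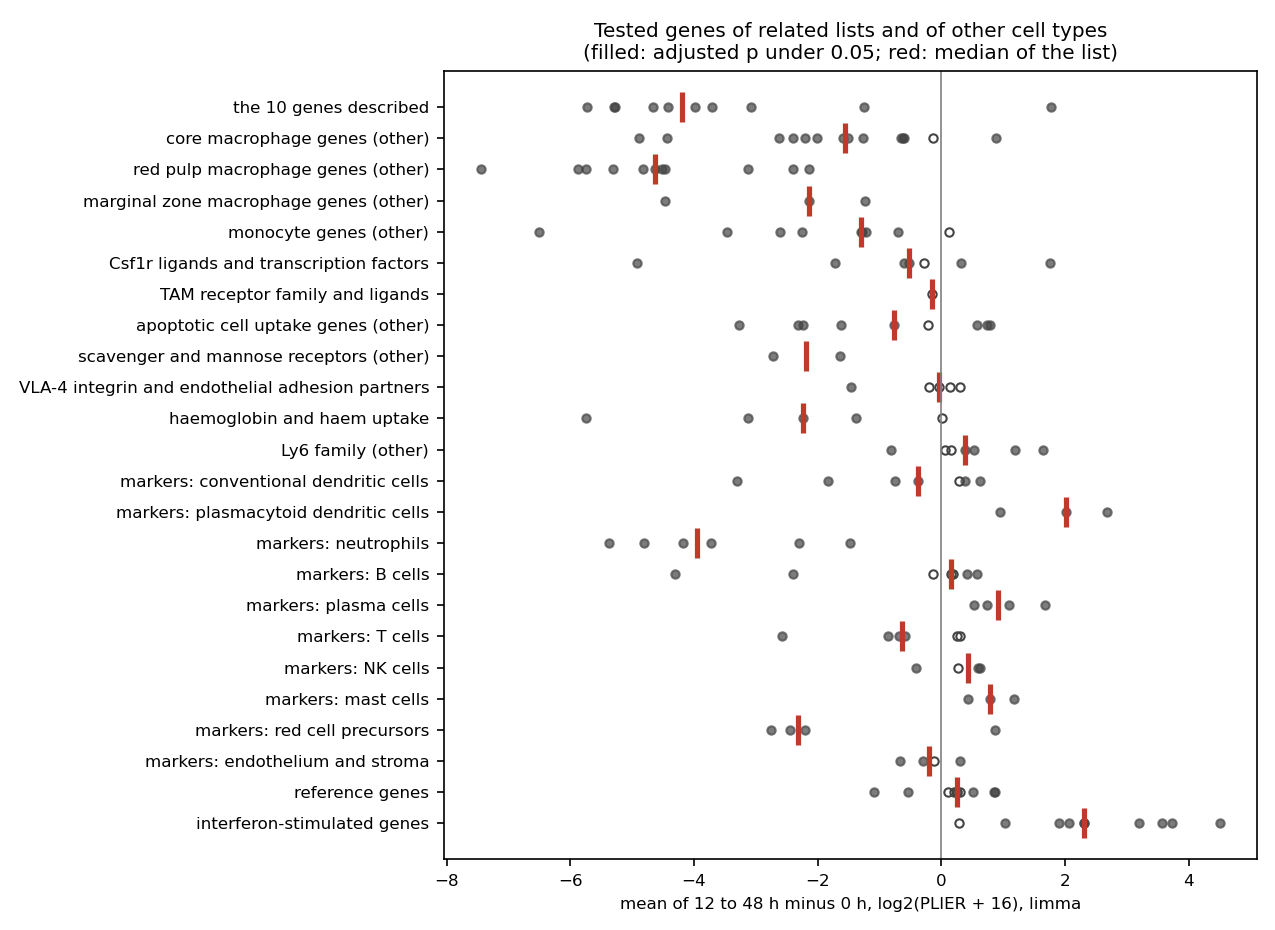
Fitted change (limma, mean of 12 to 48 h minus 0 h, log2 of PLIER + 16) of each tested gene in the lists of related genes and of markers of other cell types, with 1 point per gene, filled where the adjusted p was under 0.05, and the list median in red. The medians of the 10 genes (-4.20), the red pulp macrophage list (-4.62) and the neutrophil markers (-3.95) are the lowest. Those of interferon-stimulated genes (2.31) and plasmacytoid dendritic cell markers (2.01) are the highest. The latter rests on 3 tested genes, Bst2 (2.01), Tcf4 (0.96) and Cox6a2 (2.69).

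The drop was already in place at the earliest LPS time point. At 12 h against 0 h, 9 genes were lower and Ly6c2 was higher (19.9% lower and 41.9% higher among all tested genes), and the same 9 and 1 were called at 24, 36 and 48 h against 0 h, where 20.0%, 17.9% and 17.7% of all tested genes were lower and 39.3%, 43.7% and 43.7% were higher. With GAPDH normalisation Ly6c2 was not called at 12 h (limma change of -0.0135, SE 0.182) but was at 24, 36 and 48 h. Between 12 and 48 h the genes parted. Timd4 fell further by 1.34 ± 0.22 (SE, limma adjusted p = 0.00159), and so did Mertk (-0.86, adjusted p = 0.0324), Vcam1 (-0.68, adjusted p = 0.0110) and Axl (-0.66, adjusted p = 0.0179). Ly6c2 rose by another 1.30 ± 0.16 (SE, limma adjusted p = 4.35e-04), and the remaining 5 genes were not called. Among all tested genes 22.5% were called in this comparison, 9.70% lower and 12.8% higher. The calls of the further falls of Mertk, Axl and Vcam1 were lost when either of 2 RasGRP4-null arrays was left out. Without the RasGRP4-null 12 h array their changes were -0.35 (adjusted p = 0.313), -0.43 (0.154) and -0.44 (0.0993), and without the RasGRP4-null 48 h array they were -0.82 (0.165), -0.50 (0.186) and -0.61 (0.106). In each of these fits 2 genes were called, Timd4 and Ly6c2. Without the WT 48 h array the call of Mertk was lost (-0.90, adjusted p = 0.122). Red cell precursor markers also fell over this interval, with all 4 tested genes lower at 48 h than at 12 h.

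The genotypes were compared over all 5 time points with time in the model. None of the 10 genes differed between RasGRP4-null and WT cells at the threshold (limma), and 20 of 11185 genes did (0.179%). Of the 10 genes, 2 had an unadjusted p under 0.05: Ly6c2 was higher in RasGRP4-null cells by 0.46 ± 0.10 (SE, limma adjusted p = 0.127) and Axl by 0.36 ± 0.11 (SE, limma adjusted p = 0.276). These were also the 2 genes with the higher value in RasGRP4-null cells at all 5 time points, which was so for 5.59% of all tested genes. The differences of the other 8 genes lay between -0.10 for Marco and 0.18 for Mertk. A paired t-test of the 2 genotypes over the time points called 0 genes after Benjamini-Hochberg adjustment and found 2 of the 10 at an unadjusted p under 0.05, against 848 genes in all. Prdm1 (0.65) and Xbp1 (0.66), both plasma cell markers, were among the genes higher in RasGRP4-null cells (limma adjusted p = 0.0229 and 0.0479), and their part in the Ly6c2 difference was not tested.

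Whether the LPS response itself differed was tested by an interaction term, positive where the change after LPS was less negative or more positive in RasGRP4-null cells. None of the 10 genes passed the test (limma), while 20 of 11185 genes did (0.179%). Marco (0.59 ± 0.24, SE, adjusted p = 0.592) and Cd163 (-0.56 ± 0.25, SE, adjusted p = 0.659) had an unadjusted p under 0.05. In Marco the untreated WT array was the higher of the pair and in Cd163 the untreated RasGRP4-null array was, so that both terms rest on the single 0 h arrays. Timd4 had a term of 0.56 and Mertk of 0.47, neither past the threshold.

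**Figure D4:**
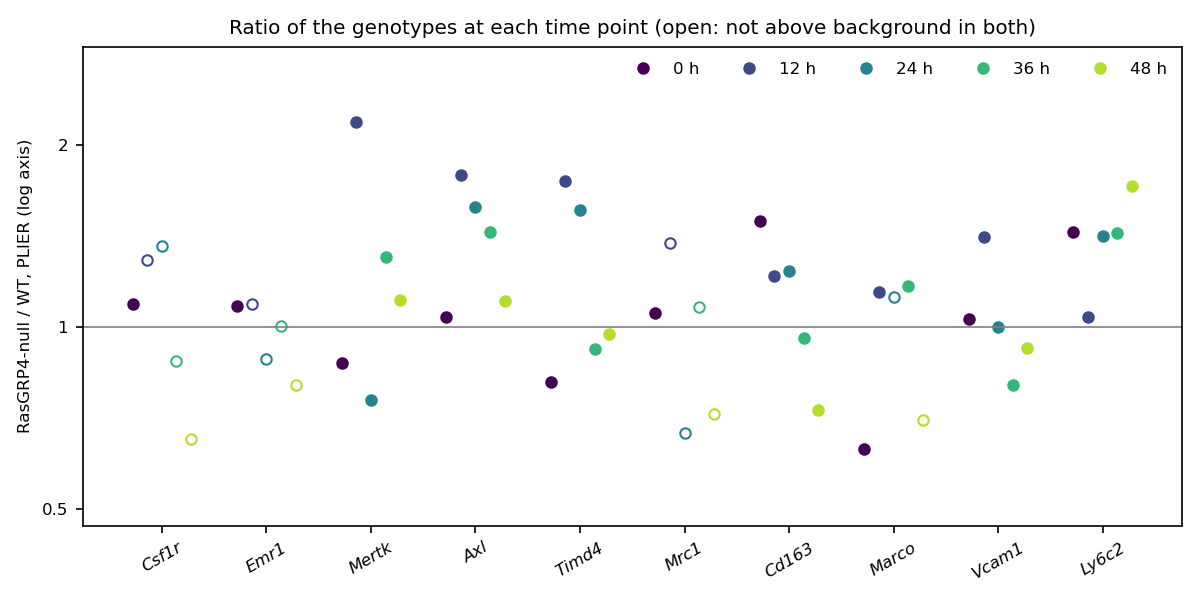
Ratio of the RasGRP4-null to the WT PLIER intensity (log axis) for each gene at each of the 5 time points, with filled points where both arrays were above background and open points otherwise. At 12 h all 10 ratios are above 1, with the highest at 2.18 for Mertk, and at 48 h 3 of the 10 are.

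At 12 h each of the 10 genes read higher on the RasGRP4-null array than on the WT array, as did 49.9% of all tested genes. The ratio was 2.18 for Mertk, 1.78 for Axl, 1.74 for Timd4 and 1.41 for Vcam1, the 4 genes that went on falling between 12 and 48 h. The RasGRP4-null 12 h array enters both this ratio and that fall, so the 2 observations are not independent. The median over the 10 genes was 1.33, with a range from 1.04 to 2.18, against 0.999 for all tested genes. In 7 of the 10 both arrays were above background, whereas Csf1r, Emr1 and Mrc1 were below it on both. At the other time points the RasGRP4-null array was the higher for 7 genes (0 h), 6 genes (24 and 36 h) and 3 genes (48 h), with median ratios of 1.05, 1.18, 1.04 and 0.863 in that order of time. Among all tested genes 47.0%, 65.7%, 49.0% and 44.6% were higher at those times, with median ratios of 0.987, 1.08, 0.996 and 0.980. The source names of the RasGRP4-null arrays titled 24, 36 and 48 h give earlier times than their titles, while that of the 12 h array matches its title. With 1 array per genotype at each time the 12 h pattern has no replicate and was not tested. On the same pair of 12 h arrays, other red pulp macrophage genes summed to 819 in WT and 1288 in RasGRP4-null cells. Of these sums, Hmox1 alone made up 270 and 639. Red cell precursor markers summed to 720 and 1020, of which Alas2 alone made up 286 and 643. At 0 h Alas2 already read 393 in WT and 916 in RasGRP4-null cells. Core macrophage genes at 12 h summed to 2466 in WT and 3086 in RasGRP4-null cells. Lower in RasGRP4-null cells were the sums of marginal zone genes (657 and 634), monocyte genes (1389 and 951) and B cell markers (4490 and 2911). Kit read 179 in WT and 334 in RasGRP4-null cells.

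The genes whose profiles over the 10 arrays were most like each member were found by Pearson's correlation of log2(PLIER + 16). The step from untreated to LPS dominates these profiles, and all are read from the same 10 arrays, so the values are a description. As many as 516 genes had r above 0.95 with Csf1r. Nearest to Csf1r were LOC100038947, Gfra2 and Lst1 (r = 0.999 each), nearest to Emr1 were Fosb, C1qc and Fcna, and nearest to Mrc1 were C1qa, Crip2 and Fcna. Cd163 was most like Crip2, Cadm1 and Paqr9, and Vcam1 was most like Sash1, Lyz2 and Cd8a. Mertk lay nearest to Treml4, Clec12a and Lyplal1, and Axl to Pak1, Zfp36 and Treml4. Timd4 and Marco had fewer like genes, with 87 genes each above 0.95. Marco was dim, at 81.9 to 130 at 0 h and 26.3 to 42.7 after LPS, and the effect of this on its count was not tested. The nearest to Timd4 was Spic (r = 0.994), followed by Klf6 and Enpp4. Marco was most like Lhx2 (r = 0.994), Hs3st2 and Itga9. Ly6c2, with 84 genes above 0.95, was most like Rint1 (r = 0.992), Gmppa and Edem1, the last of which encodes a factor that directs misfolded proteins out of the endoplasmic reticulum.

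Within the 8 LPS arrays alone, where the large step is absent, the highest correlation among the 10 genes was that of Timd4 with Vcam1 (r = 0.954), and Axl with Timd4 reached 0.896. These genes share their highest values on the 12 h arrays. Csf1r with Cd163 reached 0.902, although all 8 Csf1r values were below background. Csf1r and Emr1, at r = 0.998 over the 10 arrays, were at 0.345 over the 8.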

How the data were processed

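RNA from 10 samples was hybridised to Affymetrix MoGene-2_0-st arrays. The authors summarised probe sets by PLIER in Affymetrix Expression Console and deposited linear intensities, which PLIER's own background model can compress at the low end, and a second table multiplied to a common GAPDH level (factors 1.00 to 1.31 after LPS, 2.24 and 2.41 at 0 h). That table repeats the PLIER values, and these 10 columns were not used. Groups come from the sample titles, which differ from other labels in 2 ways, a 6 h time point in the design text that stands where the titles have 36 h and earlier times in the source names of 3 samples lacking RasGRP4.

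Of 41345 probe sets, 26679 carried 1 gene symbol, 3047 several and 11619 none. The 11185 genes that reached an intensity of 50 on 2 or more arrays were tested on log2(PLIER + 16) with limma 3.58.1 in R 4.3.3, which was first tested on simulated data. Genotype and time entered additively (4 residual degrees of freedom), and a second fit that let the LPS effect differ between genotypes had 3. The Benjamini-Hochberg method was applied over all tested genes, with a two-sided threshold of 0.05. P-values weigh each change against the spread of the 2 genotypes around a common time course, which may be technical. No replicate arrays of a genotype and time point stand behind that spread. Whether arrays of 1 genotype come from the same cell preparation is not stated. Folds compare the untreated value with the geometric mean after LPS. Where every LPS array was below background, the fold was taken against the background of those arrays and written as "at least", and the fitted change is no bound.

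The 10 genes, the lists and the tests were chosen with earlier results of these data known. Genes named beside the 10 were, of each list, up to 4 with the smallest p for LPS and exceptions in direction, and the 3 nearest in profile, some of which are not reported here. Spic, Ccr2, Il34, Ly6e, Sdc1, Siglech, Klk1, Klrb1c, Eomes, Mcpt4, Cma1, Tpsb2 and Ms4a2 were named after their values were seen. Alternatives were GAPDH and quantile normalisation, pseudocounts of 1 and 64, no filter and a filter of 100, values below background raised to it, the LPS time points alone, the methods' fold rule and a looser form of it, and leaving out each array. Figures were drawn with matplotlib 3.10.9.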

Additional observations from a re-analysis of the deposited data

How the results depend on the processing

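The direction and call of all 10 genes for the mean of 12 to 48 h against 0 h held in each of the 209 refits over 21 settings, with Marco not tested under the filter of 100. The methods' rule on folds after GAPDH normalisation, which asks for over 1% of GAPDH after LPS and was applied here to the mean of the LPS arrays, called 4 genes in both genotypes (Mertk, Axl, Timd4 and Vcam1, all lower) and Cd163 as lower in RasGRP4-null cells alone. A looser form that let a gene pass 1% before or after LPS called 9 genes lower in both genotypes, and neither form called Ly6c2. The looser form was run first, and the rule as stated was added after seeing the data. GAPDH normalisation moved the median change of all tested genes from 0.26 to -0.70 and the calls from 5388 higher and 2402 lower to 955 and 7735, so changes are relative to the scale chosen. Quantile normalisation gave 0.13 with 4549 and 3042. The number of genes called between 48 and 12 h ranged from 2 to 5 when each array was left out, and Mertk was not called with GAPDH normalisation (-0.89, adjusted p = 0.0616) or without the filter (adjusted p = 0.0576). None of the 10 genes was called for genotype or for the interaction under any setting.

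The differences that changed sign were all small and not called in the original fit. For RasGRP4-null minus WT, Emr1 was 0.0217 and Mrc1 0.0160 with GAPDH normalisation, Csf1r -0.00631 with quantile normalisation, Mrc1 0.00127 with a pseudocount of 64, Emr1 0.0274 and Mrc1 0.0315 with values raised to background, and Marco 0.0158 over the 4 LPS time points alone. For the interaction, Vcam1 was 0.00912 with quantile normalisation and Ly6c2 0.00966 with a pseudocount of 64. Between 48 and 12 h, Emr1 was -0.0148 with values raised to background. Leaving out each array in turn, RasGRP4-null minus WT ranged from -0.0206 to 0.119 for Csf1r, -0.0573 to 0.0214 for Emr1, -0.0247 to 0.305 for Mertk, -0.0813 to 0.0389 for Mrc1, -0.168 to 0.0158 for Marco and -0.0696 to 0.0936 for Vcam1. The interaction ranged from -0.141 to 0.0956 for Ly6c2 and from -0.148 to 0.0694 for Vcam1, and could not be fitted without either 0 h array. The change from 12 to 48 h ranged from -0.431 to 0.0147 for Csf1r, -0.0826 to 0.141 for Emr1 and -0.535 to 0.0267 for Cd163. The cause of these changes was not tested. For Csf1r, Emr1 and Mrc1, signal at or below background limits what can be said of differences after LPS.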
